A study of Homo sapiens with 12 samples.

Results

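Interferon sensors and transcription factors are described here through 9 genes: the RNA sensors TLR3, DDX58, IFIH1 and DHX58, the transcription factors IRF1, IRF7, IRF9 and STAT2, and USP18, a brake on interferon signalling. The genes were chosen by name as members of this pathway, and the rows of each gene's Ensembl transcripts were added up. These are 9 of 19647 genes in the table, and all 9 were among the 11908 genes tested. RNA sequencing was done on A549 cells, an established human lung adenocarcinoma line that the labels give as non-small cell lung cancer, with no treatment in any group. The 4 groups of 3 libraries were cells overexpressing NR0B1 (NR0B1 OE), the control of the overexpression (OEC), cells in which a short hairpin RNA targets NR0B1 (shNR0B1, the knockdown) and the control of the knockdown (shNC). NR0B1, also called DAX1, is a nuclear receptor without a known ligand that mostly represses transcription. The labels do not say which vector, promoter or hairpin sequence was used, nor whether each derivative was a single clone, nor whether replicates came from separate cultures, so p-values measure the spread between these samples, which may be technical.

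Cells notice viral RNA with receptors in endosomes, such as TLR3, and in the cytoplasm, such as the helicases RIG-I (DDX58), MDA5 (IFIH1) and LGP2 (DHX58). Sensing activates interferon regulatory factors that switch on type I and type III interferon genes. Secreted interferon then acts through its receptors on ISGF3, a complex that holds STAT2 and IRF9 and binds a DNA element called the interferon-stimulated response element (ISRE) and raises many genes, among them the sensors, IRF7, STAT2, IRF9 and USP18 themselves. Lung epithelial cells use both routes, and A549 cells are widely used to study them.

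Libraries held between 15049011 and 22797076 expected counts. NR0B1 itself stood at 98.9, 81.8 and 84.1 CPM (counts scaled to library size) in the overexpression libraries and at 17.9, 60.1 and 55.2 CPM in their controls. In the knockdown it was 2.99, 3.31 and 5.84 CPM against 16.3, 21.1 and 13.3 CPM in the controls. NR0B1 was thus lower in all 3 knockdown libraries (log2 fold change -2.06, SE 0.42, adjusted p = 0.00593), whereas the rise with overexpression did not pass the test (log2 fold change 0.99, SE 0.38, adjusted p = 0.0912), replicate 1 of the control being the lowest of its group. Of 11 markers of A549 and lung epithelium, 7 or 8 reached 1 CPM in each group, the keratin KRT8 among them. Of 6 leukocyte markers only CD68 did so, and PTPRC, CD3E and NKG7 were at 0 in nearly all libraries. The plasmacytoid dendritic cell markers LILRA4 and CLEC4C were at 0 throughout. Knockdown replicate 2 stands apart: its log2 CPM over all genes correlated with the other knockdown libraries at 0.900 to 0.923 and with overexpression control replicate 2 at 0.934. NR0B1 was as low in it as in the others, while KRT8 was 1321 CPM there against 2470 and 2927 CPM. The 9 genes are therefore given library by library, and the counts of called genes with and without that library.

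Promoter sequence was looked up because 8 of the 9 genes moved together from library to library, as given below. RefSeq promoters (GRCh38.p14, from 250 bases before to 50 after the start) were found for 6 of the 9: STAT2, IRF1, IRF9, DDX58 (listed as RIGI), IFIH1 and TLR3. IRF7, DHX58 and USP18 were not matched. Both strands were searched for the ISRE core (GAAA, 2 bases of any kind, GAAA), which 3.57% of 35116 such windows hold, and for the interferon gamma-activated site GAS (TTC, 3 bases of any kind, GAA), a pattern that is its own reverse complement and that 7.66% hold. A base may belong to 2 overlapping matches. IFIH1 and TLR3 held the ISRE core, IRF1, IRF9 and TLR3 held the GAS letters, and neither was present in the windows of STAT2 and DDX58. The stretches that carry the matches are printed 5′ to 3′ on the strand of the gene, with the matching bases in capitals.
IRF1, GAS, chr5:132490839-132490947, minus strand, 124 to 116 bases before the start: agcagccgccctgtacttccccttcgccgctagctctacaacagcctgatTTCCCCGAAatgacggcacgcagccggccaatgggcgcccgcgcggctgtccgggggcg
IRF9, GAS, chr14:24161191-24161220, plus strand, 63 to 55 bases before the start: gaccacgtgatTTCTGGGAAaaggccctcc
IFIH1, ISRE core, chr2:162318778-162318887, minus strand, 2 overlapping matches from 159 to 144 bases before the start: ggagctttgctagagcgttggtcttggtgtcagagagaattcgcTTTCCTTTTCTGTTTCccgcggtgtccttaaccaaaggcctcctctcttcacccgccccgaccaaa
IFIH1, ISRE core, chr2:162318686-162318715, minus strand, 21 to 12 bases before the start: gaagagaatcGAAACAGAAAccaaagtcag
TLR3, ISRE core, chr4:186069142-186069171, plus strand, spanning the start: caagctttacTTTCACTTTCgagagtgccg
TLR3, GAS, chr4:186068928-186069036, plus strand, 178 to 170 bases before the start: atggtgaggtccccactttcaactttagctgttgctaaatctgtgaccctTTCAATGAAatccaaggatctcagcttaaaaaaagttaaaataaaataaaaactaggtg
TLR3, GAS, chr4:186069095-186069124, plus strand, 50 to 42 bases before the start: tccctttgcccTTCTTGGAAtgcaccaaac
A match is a description of letters and shows neither binding nor use of the site. An ISRE core lies close to the start of transcription in both IFIH1 and TLR3, on the strand of the gene in IFIH1 and on the other strand in TLR3.

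Averaged over the 12 libraries and scaled to transcript length (FPKM), IRF9 had the highest level, 44.9 FPKM, followed by STAT2 at 29.4, IRF1 at 28.1, DDX58 at 22.7, USP18 at 20.8, IFIH1 at 17.7 and IRF7 at 17.2 FPKM. TLR3 averaged 3.86 FPKM and DHX58 1.10 FPKM. The first 7 overlapped widely between libraries, STAT2 going from 7.79 to 57.3 FPKM and IRF9 from 4.20 to 92.5 FPKM, so neighbours in that order did not differ beyond their spread. TLR3, at 0.76 to 9.18 FPKM, overlapped the lowest libraries of these genes except those of IRF1. DHX58 reached 1 FPKM in 6 libraries, none of them knockdown replicate 1 or 3 or a knockdown control, and so entered the test only through the libraries where it is high. In bulk RNA, fewer cells expressing a gene and less RNA per cell cannot be told apart.

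Of the sensors, DDX58 (ENSG00000107201, GRCh38 chromosome 9, 32455705 to 32526324, minus strand) encodes RIG-I, which recognises the ends of viral RNA. It was 277, 169 and 222 CPM with overexpression and 209, 129 and 84.7 CPM in the overexpression controls. In the knockdown DDX58 was 26.1, 281 and 17.2 CPM, and in the knockdown controls it was 13.4, 11.7 and 20.6 CPM. Knockdown replicate 2 was higher than any other library, and the rest of the knockdown arm lay below every library of the overexpression arm.

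IFIH1 (ENSG00000115267, chromosome 2, 162267079 to 162318703, minus strand) encodes MDA5, the sensor of long double-stranded RNA. Its levels were 144, 109 and 114 CPM with overexpression and 151, 79.5 and 59.5 CPM in those controls. In the knockdown IFIH1 was 2.32, 173 and 1.91 CPM against 9.51, 6.58 and 8.72 CPM in the controls. It had the widest spread among the 3 knockdown libraries: replicate 2 was 74.4 times replicate 1, while replicates 1 and 3 were below all 3 controls.

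TLR3 (ENSG00000164342, chromosome 4, 186069152 to 186088069, plus strand) encodes the endosomal receptor for double-stranded RNA. It stood at 20.4, 12.4 and 16.8 CPM with overexpression and 28.7, 11.4 and 9.17 CPM in the controls. In the knockdown TLR3 was 3.56, 21.7 and 1.97 CPM, and in its controls 4.70, 4.98 and 5.88 CPM. As for IFIH1, replicates 1 and 3 of the knockdown were below all 3 controls and replicate 2 was above them.

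DHX58 (ENSG00000108771, chromosome 17, 42101404 to 42112733, minus strand) encodes LGP2, a helicase related to RIG-I and MDA5 that lacks their signalling domains and modulates them. It was 9.37, 4.60 and 6.18 CPM with overexpression and 6.17, 3.93 and 2.08 CPM in the controls. In the knockdown arm DHX58 had 2, 85 and 0 expected counts in the knockdown libraries and 1, 1 and 4 in their controls, that is at most 0.21 CPM outside replicate 2. At 4 libraries with 3 counts or fewer, no difference between the knockdown controls and replicates 1 and 3 was detectable at this depth.

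**Figure D1:**
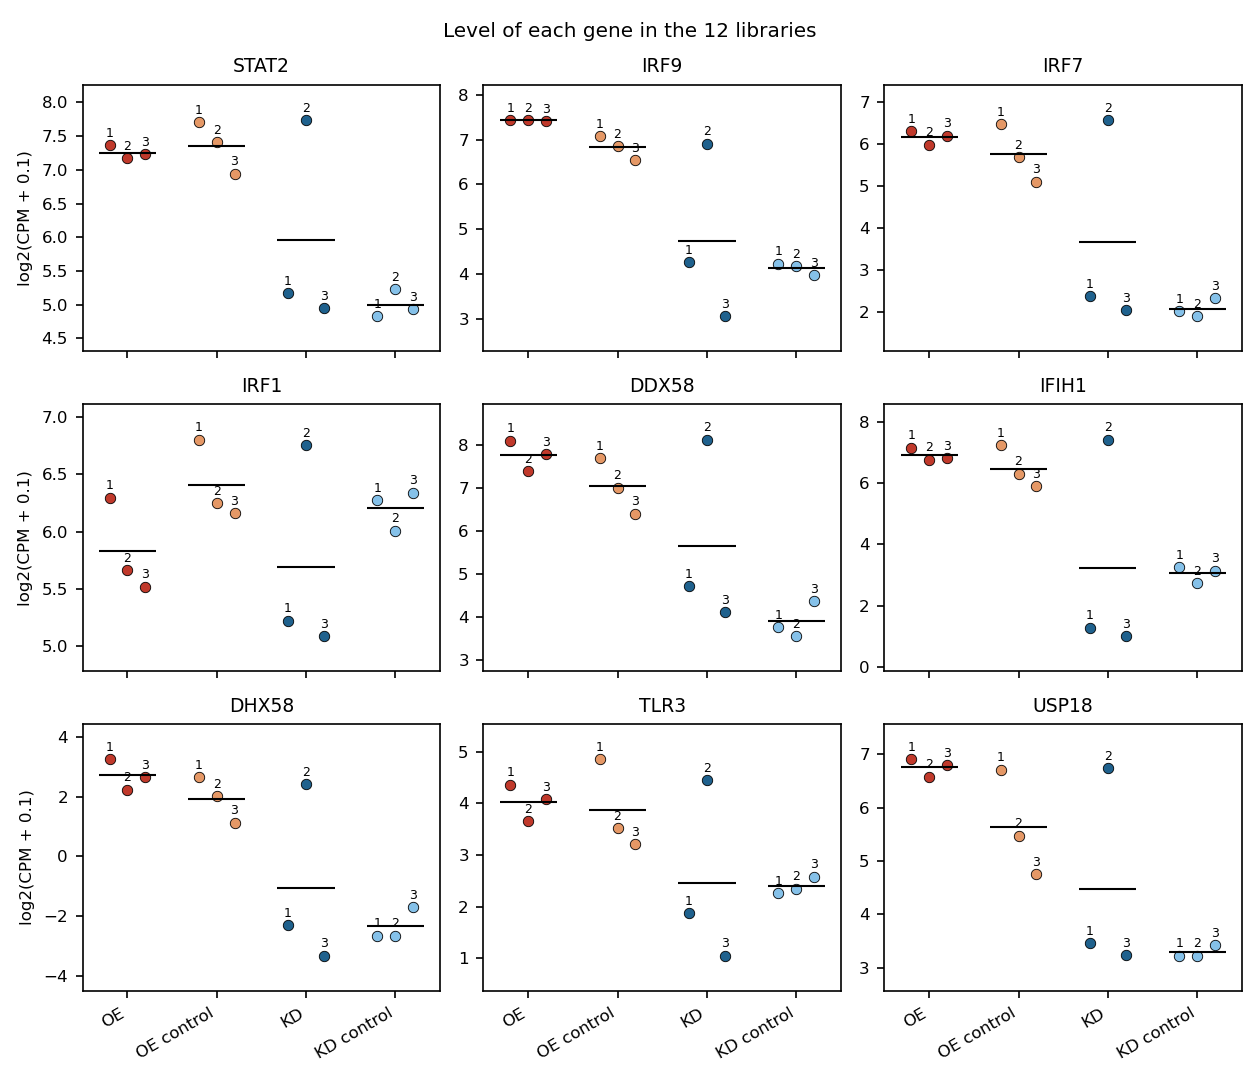
Level of each of the 9 genes in the 12 libraries, as log2(CPM + 0.1) on the vertical axis, with the groups on the horizontal axis (OE, overexpression and KD, knockdown). Each point is a library with its replicate number and the bar is the mean of the group's log2 values. Knockdown replicate 2 lies far above replicates 1 and 3 in every panel, and IRF1 is the gene whose knockdown controls lie within the range of the overexpression arm.

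Of the transcription factors, STAT2 (ENSG00000170581, chromosome 12, 56341597 to 56360155, minus strand) brings the activation domain to ISGF3. It was 165, 144 and 151 CPM with overexpression and 209, 171 and 123 CPM in the controls. STAT2 was 35.8, 214 and 30.9 CPM in the knockdown and 28.3, 37.4 and 30.5 CPM in its controls. Replicates 1 and 3 of the knockdown lay within the range of their controls, and replicate 2 was above all other libraries.

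IRF9 (ENSG00000213928, chromosome 14, 24161053 to 24166565, plus strand) provides the DNA-binding part of ISGF3. It stood at 174, 173 and 170.4 CPM with overexpression and 136, 116 and 92.9 CPM in the controls, so all 3 overexpression libraries were above all 3 controls. In the knockdown IRF9 was 19.1, 120.4 and 8.24 CPM against 18.7, 17.97 and 15.6 CPM. Replicate 3 of the knockdown was the lowest library and replicate 1 was slightly above the highest control. The annotation places AL136295.5 over IRF9 on the same strand, so reads there could belong to either.

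IRF7 (ENSG00000185507, chromosome 11, 612553 to 615999, minus strand) is the factor that amplifies interferon production and is itself raised by interferon. Its levels were 79.1, 63.4 and 73.6 CPM with overexpression and 89.6, 51.9 and 34.4 CPM in the controls. In the knockdown IRF7 was 5.10, 95.8 and 4.0 CPM, and in its controls 3.93, 3.62 and 4.88 CPM. Replicates 1 and 3 of the knockdown thus lay at the level of their controls, and replicate 2 was higher than any other library.

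IRF1 (ENSG00000125347, chromosome 5, 132481609 to 132490798, minus strand) is induced by interferon gamma and by inflammatory signals and can act without ISGF3. It was 78.5, 50.6 and 45.7 CPM with overexpression and 112, 76.0 and 71.4 CPM in the controls. In the knockdown IRF1 was 37.2, 108 and 33.9 CPM against 77.5, 64.2 and 80.9 CPM in the controls. For IRF1, unlike the other 8 genes, the knockdown controls lay within the range of the overexpression arm, and knockdown replicates 1 and 3 were the lowest libraries. On the opposite strand the annotation has C5orf56 and AC116366.3. Whether counting used strand is not given in the sources used here, so reads of these and of IRF1 cannot be told apart.

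USP18 (ENSG00000184979, chromosome 22, 18149899 to 18177397, plus strand) removes ISG15 from proteins and blocks the type I interferon receptor, which damps the response. It stood at 120, 95.7 and 111 CPM with overexpression and 104, 44.3 and 26.9 CPM in the controls. In the knockdown USP18 was 10.9, 107 and 9.35 CPM against 9.27, 9.25 and 10.6 CPM in the controls. Replicates 1 and 3 lay within or just above the range of the controls, and replicate 2 was at the level of the overexpression libraries. USP41, a near-identical copy of USP18, was listed at 0 in every library, and reads that fit both could have been assigned to either.

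The knockdown comparison asks whether lowering NR0B1 changes these genes. Of the 9 genes 1, DDX58, was called, and it was higher (log2 fold change 2.82, SE 0.91, adjusted p = 0.0458 by edgeR). That is 1 of 9, where 23.9% of all genes tested were called in this comparison and 12.4% were called higher. For DDX58 the ranges of the 3 knockdown and 3 control libraries overlapped, and the exact permutation test on FPKM gave p = 0.2, the smallest possible being 0.1. At an unadjusted p below 0.05 the fit also had STAT2, IRF7, DHX58 and USP18, with adjusted p of 0.0873, 0.0552, 0.0840 and 0.0934. The share of all genes at that cutoff is not given here, so nothing is read from the number of these genes. The fitted log2 fold changes were 1.54 (SE 0.60) for STAT2, 3.07 (SE 1.04) for IRF7, 3.88 (SE 1.51) for DHX58 and 2.12 (SE 0.85) for USP18. IFIH1 was at 2.83 (SE 1.32, adjusted p = 0.143), IRF9 at 1.5 (SE 0.72, adjusted p = 0.156), TLR3 at 0.80 (SE 0.73, adjusted p = 0.455) and IRF1 at -0.31 (SE 0.40, adjusted p = 0.598). In none of the 9 were all 3 knockdown libraries above or all 3 below the controls, against 20.2% and 20.6% of all genes. The median log2 fold change was 2.12 over the 9 genes and 0.03 over all genes. DHX58 is in that median though it passed the filter only through libraries where it is high, so its value supports nothing.

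Knockdown replicate 2 carried the positive values. It was at least 2-fold above both other knockdown libraries in 9 of 9 genes, where 4.53% of all genes tested were so and 2.44% were at least 2-fold below. DHX58 passed the filter only through libraries where it is high, this replicate among them. Its place in the count supports nothing, and the count rests on the other genes. Over the higher of replicates 1 and 3 the ratio was 2.91 for IRF1, 5.97 for STAT2, 6.09 for TLR3, 6.31 for IRF9, 9.77 for USP18, 10.8 for DDX58 and 18.8 for IRF7. IRF1 had the smallest ratio, and IFIH1, given above, the largest among genes with more than a few counts. For 5 of the 9 (IRF1, IRF9, DHX58, TLR3 and USP18) replicate 2 lay within the range of the 6 libraries of the overexpression arm, which held for 59.8% of all genes, and for STAT2, IRF7, DDX58 and IFIH1 it lay above that range. The leukocyte markers summed to 42.4 to 134 CPM in the knockdown and 33.9 to 46.7 CPM in its controls, nearly all of it CD68. CD68 was 42.3, 134 and 42.4 CPM in the knockdown, and 97.8 to 135 CPM in the overexpression arm, so the 134 CPM of knockdown replicate 2 lay within that range, and its part in the result was not tested. PTPRC was below 1 CPM and LILRA4 and CLEC4C were at 0 in every library, replicate 2 included. The fibroblast markers summed to 13.0 to 45.5 CPM in the knockdown and 2.99 to 4.33 CPM in its controls. This was nearly all COL1A1, at 43.1, 11.4 and 13.0 CPM in the knockdown, lowest in replicate 2, and its part in the result was not tested.

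Without replicate 2, IFIH1 and IRF1 were called lower in the knockdown and none was called higher, where 28.8% of all genes were called. IFIH1 was 3.90-fold lower (log2 fold change -1.96, SE 0.42, adjusted p = 0.00678) and IRF1 2.09-fold lower (log2 fold change -1.06, SE 0.25, adjusted p = 0.0110). With 2 libraries against 3 this fit takes the spread from all groups. TLR3, the other gene of which both remaining knockdown libraries lay below all controls, had a log2 fold change of -0.91 (SE 0.48, adjusted p = 0.188). Such a position, both libraries below all 3 controls, was found in 3 of the 9 genes and in 29% of all genes. STAT2 (0.05, SE 0.20), IRF7 (0.13, SE 0.36) and USP18 (0.06, SE 0.45) were near 0, with adjusted p of 0.867, 0.816 and 0.935. DDX58 was at 0.50 (SE 0.38, adjusted p = 0.355), IRF9 at -0.35 (SE 0.28, adjusted p = 0.383) and DHX58 at -0.93 (SE 1.17, adjusted p = 0.586). The call of DDX58 was lost, and the sign turned for IRF9, IFIH1, DHX58 and TLR3. Leaving out another knockdown library instead raised the count of called genes, to 5 without replicate 1 and 7 without replicate 3, all higher, where 17.9% and 25.5% of all genes were called.

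**Figure D2:**
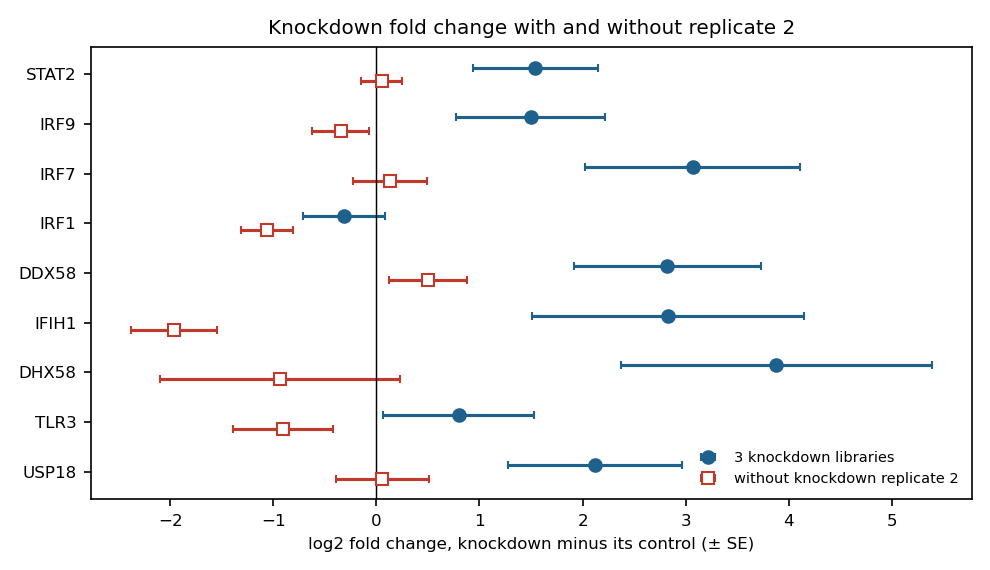
Log2 fold change of each gene, knockdown minus its control, on the horizontal axis, with bars of 1 SE. Filled circles use 3 knockdown libraries and open squares leave out replicate 2. The circles lie above 0 for every gene but IRF1, and the squares of IRF1 and IFIH1 are the ones called, both below 0.

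The overexpression comparison asks the converse. None of the 9 genes was called, where 18.1% of all genes tested were (9.87% higher and 8.2% lower). The count was also 0 at an unadjusted p below 0.05 in edgeR, and 0 with DESeq2 and with limma. The shares of all genes for these further counts are not given here, so nothing is read from them. USP18 had the largest fitted value (log2 fold change 0.89, SE 0.80, adjusted p = 0.460), followed by DHX58 (0.73, SE 1.09, adjusted p = 0.673), DDX58 (0.66, SE 0.84, adjusted p = 0.613) and IRF9 (0.59, SE 0.69, adjusted p = 0.584). IRF1 was at -0.57 (SE 0.40, adjusted p = 0.338). IFIH1 (0.34, SE 1.20), IRF7 (0.30, SE 0.92), TLR3 (0.01, SE 0.71) and STAT2 (-0.13, SE 0.59) had adjusted p of 0.869, 0.849, 0.991 and 0.898. IRF9 was the only gene without overlap between the groups, at 172.6 ± 1.93 CPM (SD, n = 3) against 115 ± 21.5 CPM. Its exact permutation p was 0.1, the smallest that 3 against 3 libraries allow, and 21.6% of all genes lay above their controls in this way.

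The overexpression controls had a common order. In 9 of 9 genes replicate 1 was the highest and replicate 3 the lowest of the 3 controls, an order that 22.5% of all genes tested had. USP18 went from 104 CPM in replicate 1 to 26.9 CPM in replicate 3, and IRF9 from 136 to 92.9 CPM. Replicate 1 was also the control with the lowest NR0B1. Without it, 0 of the 9 were called, where 25.3% of all genes were. Without it and knockdown replicate 2 together, 5 of 9 were called higher, where 37.5% of all genes were called in either direction. These were IRF7 (log2 fold change 0.74, adjusted p = 0.0152), IRF9 (0.73, adjusted p = 0.0486), DDX58 (1.06, adjusted p = 0.0238), IFIH1 (0.81, adjusted p = 0.00734) and USP18 (1.61, adjusted p = 0.000503). Control replicate 1 was the highest control in 9 of 9 genes, so leaving it out raises each fitted value. Nothing is therefore read from the 5. Knockdown replicate 2 is in neither group and enters this comparison only through what the fit shares over all groups, the estimate of spread included. Without that library alone 0 of the 9 were called, where 27.7% of all genes were. With the 6 libraries of the arm alone, IRF9 was called higher (adjusted p = 0.0253), where 21% of all genes were called.

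The difference of the responses was tested directly, as overexpression minus its control less knockdown minus its control. None of the 9 was called, where 25.6% of all genes were, none had an unadjusted p below 0.05 in edgeR, and DESeq2 and limma called 0 as well. Apart from the 25.6%, the shares of all genes for these counts are not given here. All 9 fitted values were below 0, with a median of -1.67 against -0.06 over all genes. DHX58, whose value follows in part from the filter, is among them. Without knockdown replicate 2, IFIH1 alone was called, in the opposite direction (log2 difference 2.31, adjusted p = 0.00752), where 28.6% of all genes were called.

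The control groups differed from each other. Of the 9 genes, 6 were higher in the overexpression controls than in the knockdown controls, where 33.4% of all genes were called and 17.2% were called higher. IRF7 was 14.1-fold higher (log2 difference 3.82, SE 1.07, adjusted p = 0.0201), DDX58 9.22-fold (3.20, SE 0.92, adjusted p = 0.0225), IRF9 6.59-fold (2.72, SE 0.75, adjusted p = 0.0185), USP18 6.02-fold (2.59, SE 0.86, adjusted p = 0.0397) and STAT2 5.22-fold (2.38, SE 0.62, adjusted p = 0.0143). DHX58 was also called (5.08, SE 1.5, adjusted p = 0.0235) on 1, 1 and 4 counts in the knockdown controls. Because it passed the filter only through libraries where it is high, its call and its lack of overlap follow in part from the filter and support nothing, and without it 5 of 8 genes were called. IFIH1 (3.55, SE 1.35, adjusted p = 0.0656) and TLR3 (1.66, SE 0.74, adjusted p = 0.105) did not pass, and IRF1 was at 0.22 (SE 0.40, adjusted p = 0.698). All genes but IRF1 had all 3 overexpression controls above all 3 knockdown controls, 8 of 9 (7 of 8 without DHX58) against 27.3% of all genes. None was below (26.7% of all genes). In the same 8, DHX58 among them, all 6 libraries of the overexpression arm were above all 3 knockdown controls. The share of all genes placed in this way is not given here, so nothing is read from that count. The labels do not say how the control groups differ beyond their names, so what separates them cannot be told apart. The count was 0 without knockdown control replicate 1, 1 without replicate 2 and 0 without replicate 3, where 23.4%, 23.7% and 21.5% of all genes were called. It was 8 without knockdown replicate 2, where 41.3% of all genes were called, and the fitted values of these 8 genes were above 0 under every alternative run.

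Transcript shares were compared within the overexpression arm for 24 Ensembl transcripts with a share of at least 5% in some library, and 8 of them did not overlap between the groups, against 17.3% of such transcripts over all genes tested. Shares of a gene add up to the whole, so its transcripts are not separate results. A gene with a single transcript cannot differ, and such genes are in the 17.3%. Nothing is therefore read from the 8 against that share. IRF7 had the largest shift and was singled out after the values were seen. IRF7-201 (ENST00000330243) made up 62.4%, 50.6% and 57.8% of the IRF7 expected counts with overexpression and 21.3%, 11.4% and 14.2% in the controls. IRF7-205 (ENST00000397574) made up 15.3%, 17.2% and 22.6% with overexpression and 58.3%, 58.1% and 68.2% in the controls. The total of IRF7 overlapped between these groups while the shares of these transcripts did not, each with an exact permutation p of 0.1, the smallest possible, and 0.3 after adjustment over the 24. In the knockdown arm IRF7-201 had 57.0%, 29.1% and 47.4% in the knockdown and 0 in all 3 controls, where IRF7 as a whole had at most 93.3 counts. Replicates 1 and 3 of the knockdown, at control level for the gene, thus differed from the controls in which transcript was listed. These shares are estimates that split reads between transcripts with shared exons, so an error of assignment was not tested.

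Among the other genes the shares moved less. The STAT2 transcript ENST00000557235 was 9.85 ± 7.64% (SD, n = 3) with overexpression and 24.3 ± 5.02% in the controls. IFIH1-202 was 11.8 ± 1.85% against 4.68 ± 2.28%, and DHX58-202 was 11.5 ± 1.37% against 5.76 ± 0.99%. IRF9-205 was 6.54 ± 2.48% against 2.43 ± 0.53%, and IRF9-203 went the other way, 2.88 ± 1.13% against 6.44 ± 1.49%. DDX58, IRF1, TLR3 and USP18 had overlapping shares in every transcript compared, USP18 having a single Ensembl transcript.

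**Figure D3:**
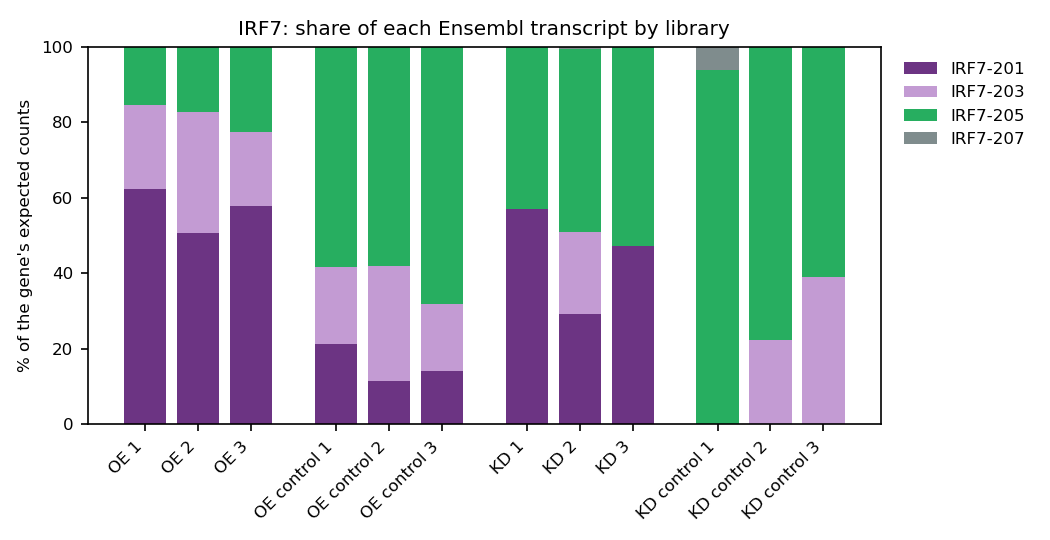
Share of each Ensembl transcript in the expected counts of IRF7, in percent on the vertical axis, for the 12 libraries on the horizontal axis (OE, overexpression and KD, knockdown). IRF7-201 makes up 50.6% to 62.4% with overexpression, 11.4% to 21.3% in the overexpression controls and 0 in the knockdown controls.

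The genes with the most similar pattern were found by Pearson's correlation of log2 CPM over the 12 libraries. It describes libraries that lie at a high or a low level, with no p. IRF7 was closest to PARP10 (0.996), OAS2 (0.995) and ISG15 (0.994), DDX58 to ISG15 (0.993), MX1 and SP100, and DHX58 to OASL (0.994), IFI16 and SHISA5. STAT2 was closest to HERC5 (0.993), USP18 to DTX3L and RSAD2 (both 0.992), TLR3 to SAMD9L (0.994), IFIH1 to PLSCR1 and APOL6 (both 0.991) and IRF9 to CMPK2 (0.986). Most of these are textbook interferon-stimulated genes: MX1, OAS2 and RSAD2 encode antiviral effectors, and ISG15 a ubiquitin-like protein that USP18 removes. Within the 6 libraries of the overexpression arm alone the first-ranked partner of each of these 8 genes had a correlation between 0.937 (HERC5 with STAT2) and 0.996 (DTX3L with USP18). Lower-ranked partners went down to 0.72 in that arm (PSMB9 with IFIH1). The ranking itself used these 6 libraries too, so the values within the arm are no separate check. The nearest genes of IRF1 over the 12 libraries were LSR (0.939), ABCG1 (0.927) and FNDC3B (0.918). Within the overexpression arm LSR was at 0.947, inside the range of the first-ranked partners of the other 8 genes.

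Upstream of the 9 genes, most ligands were close to the limit of detection. IFNB1, a type I interferon, had 58, 23 and 30 counts with overexpression and 14, 9 and 6 in the controls. In the knockdown IFNB1 had 0, 42 and 0 counts and in its controls 0, 0 and 2. IFNL1, a type III interferon, was 4.76, 1.58 and 2.11 CPM with overexpression, 2.54, 1.15 and 0.52 CPM in the controls, and 8.28 CPM in knockdown replicate 2 against at most 0.11 CPM in the other 5 libraries of that arm. The library with high sensors in the knockdown thus also held reads of IFNB1 and IFNL1. IFNE, another type I interferon, had 54, 40 and 36 counts with overexpression and 84, 56 and 14 in the controls. In the knockdown IFNE had 74, 115 and 167 counts against 52, 83 and 79. It was thus highest in replicate 3, where the sensors were low. Of the 15 ligands and receptors 10 were tested and none was called in either arm. Without knockdown replicate 2, 1 was higher and 2 were lower with overexpression, where 27.7% of all genes were called in either direction. IL10RB, a receptor chain for type III interferon, was then lower in the knockdown (log2 fold change -0.94, SE 0.20, adjusted p = 0.00681), where 28.8% were called. IFNAR2, a chain of the type I receptor, was at log2 fold changes of -0.67 (SE 0.24, adjusted p = 0.0686) with overexpression and 0.19 (SE 0.23, adjusted p = 0.588) in the knockdown.

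Of the JAK kinases and other STATs 9 were tested. STAT5B was lower in the knockdown (log2 fold change -0.60, SE 0.14, adjusted p = 0.0131), and no other was called in either arm. Without knockdown replicate 2 it was still lower (-0.64, SE 0.17, adjusted p = 0.0174), JAK1 was higher in the knockdown (0.27, SE 0.09, adjusted p = 0.0395) and 1 member was lower with overexpression. Over all genes 23.9% were called in the knockdown and 18.1% with overexpression, and 28.8% and 27.7% without that replicate.

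Of the 6 other interferon regulatory factors and their binding proteins that were tested, 3 were lower with overexpression, where 8.2% of all genes were called lower. IRF2, a repressor of interferon genes, was 25.3, 28.2 and 25.5 CPM against 45.8, 53.2 and 57.4 CPM (log2 fold change -0.98, SE 0.28, adjusted p = 0.0330), and its partners IRF2BP2 (-0.93, SE 0.24, adjusted p = 0.0229) and IRF2BPL (-1.13, SE 0.27, adjusted p = 0.0175) were lower too. In the knockdown IRF2BP2 was higher (0.83, SE 0.24, adjusted p = 0.0276) and IRF2BP1 lower (-0.43, SE 0.12, adjusted p = 0.0221). The responses of IRF2BP2 differed between the arms (adjusted p = 0.00395). Without knockdown replicate 2, IRF2BP2 was at 0.48 (SE 0.17, adjusted p = 0.0595). The list then had 5 lower members with overexpression and 3 in the knockdown: IRF2 (-0.91, SE 0.16, adjusted p = 0.00215), IRF2BP1 (-0.48, SE 0.13, adjusted p = 0.0173) and IRF3 (-0.31, SE 0.09, adjusted p = 0.0297). Over all genes 27.7% were then called in either direction with overexpression and 28.8% in the knockdown.

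Of 16 other nucleic acid sensors 7 were tested, none was called with overexpression and EIF2AK2 (PKR, a kinase activated by double-stranded RNA) was higher in the knockdown. EIF2AK2 was 318, 1049 and 243 CPM in the knockdown and 212, 221 and 222 CPM in its controls (log2 fold change 1.3, SE 0.42, adjusted p = 0.0463). All 3 knockdown libraries were above all 3 controls. Without replicate 2 the value was 0.36 (SE 0.14, adjusted p = 0.0742). DHX9, an RNA helicase, was then the member called higher in the knockdown (1.12, SE 0.21, adjusted p = 0.00327), and 1 member was higher with overexpression. Over all genes 18.1% were called with overexpression and 12.4% were called higher in the knockdown. Without replicate 2, 27.7% were called in either direction with overexpression and 28.8% in the knockdown.

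Of the adaptors and kinases of sensing 13 were tested, and with overexpression 3 were higher and 2 lower, where 9.87% of all genes were called higher and 8.2% lower. These counts were 5 and 3 without knockdown replicate 2, where 27.7% of all genes were called in either direction. In the knockdown 2 were higher and none lower, where 12.4% and 11.5% of all genes were. Without that replicate, 2 were higher and 1 lower, where 28.8% of all genes were called in either direction. MYD88, the adaptor of most Toll-like receptors though not of TLR3, was 156, 126 and 139 CPM against 92.0, 61.6 and 41.6 CPM (log2 fold change 1.11, SE 0.33, adjusted p = 0.0417). TRIM25, the ubiquitin ligase that assists RIG-I, was 2.17-fold higher (adjusted p = 0.0113) and TRAF6, which acts downstream of MYD88, 2.0-fold higher (adjusted p = 0.00232). TICAM1, the adaptor that TLR3 does use, and UNC93B1, which carries TLR3 to endosomes, were the lower ones. UNC93B1 was at -0.53 (SE 0.14, adjusted p = 0.0289). In the knockdown MYD88 was higher as well, at 39.5, 90.7 and 45.3 CPM against 19.8, 18.3 and 13.1 CPM (log2 fold change 1.78, SE 0.35, adjusted p = 0.00478), and without replicate 2 it was still higher (1.31, SE 0.28, adjusted p = 0.00669).

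Of 15 negative regulators tested, 1 was higher and 2 were lower with overexpression, and 3 were higher and 2 lower in the knockdown. Over all genes 9.87% were called higher and 8.2% lower with overexpression, and 12.4% and 11.5% in the knockdown. Nothing is therefore read from these counts. The counts without knockdown replicate 2 were 3 and 2 with overexpression and 1 and 3 in the knockdown, where CYLD was lower (log2 fold change -1.25, SE 0.27, adjusted p = 0.00732). Without that replicate 27.7% of all genes were called in either direction with overexpression and 28.8% in the knockdown. SOCS1, an inhibitor of JAK kinases, was higher in both arms, at low levels. SOCS1 was 3.34, 2.82 and 2.43 CPM with overexpression against 0.70, 0.71 and 0.26 CPM (5.05-fold, adjusted p = 0.00546) and 1.19, 1.29 and 1.72 CPM in the knockdown against 0.23, 0.36 and 0.21 CPM (5.14-fold, adjusted p = 0.00421). These arms share no library. Without knockdown replicate 2 the log2 fold change of SOCS1 was 2.41 (SE 0.49, adjusted p = 0.00545). SOCS3 was lower in the knockdown (-0.97, SE 0.18, adjusted p = 0.00382).

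Downstream, 41 interferon-stimulated effectors were listed and 39 tested. With overexpression none was higher and 1, GBP2, was lower, where 9.87% and 8.2% of all genes were. These counts were 0 and 0 without overexpression control replicate 1, 5 and 2 without knockdown replicate 2, and 24 and 1 without both. Over all genes 25.3%, 27.7% and 37.5% were called in either direction with these omissions. The median log2 fold change with overexpression was 0.41 over all libraries and 1.02 without both. Control replicate 1 was the highest control for MX1, for example, so leaving it out raises such values, and nothing is read from the 24. In the knockdown 16 were higher and none lower, where 12.4% of all genes were called higher. Without replicate 2 the counts were 2 higher and 1 lower, where 28.8% of all genes were called in either direction. The median log2 fold change went from 3.24 to 0.10. OAS1, which makes the signal that activates an antiviral ribonuclease, was 16.7, 308 and 12.9 CPM in the knockdown and 6.57, 6.88 and 5.62 CPM in its controls (log2 fold change 4.14, SE 1.07, adjusted p = 0.0192). Without replicate 2 OAS1 was still higher (1.22, SE 0.26, adjusted p = 0.00710), and so was OAS3 (0.91, SE 0.29, adjusted p = 0.0382). MX1, a GTPase that blocks viral replication, was 5.21, 640 and 2.71 CPM in the knockdown against 1.58, 2.19 and 2.84 CPM (6.6, SE 1.82, adjusted p = 0.0253) and without replicate 2 it was at 0.84 (SE 0.51, adjusted p = 0.246). Between the control groups, 32 of the 39 were higher in the overexpression controls, where 17.2% of all genes were called higher. The count was 21 without overexpression control replicate 1 (36.8% of all genes called in either direction) and 39 without knockdown replicate 2 (41.3%). Some of the 39 passed the filter only through libraries where they are high. XAF1, for example, had 1, 0 and 0 counts in the knockdown controls. Calls of such genes between the controls and in the knockdown follow in part from the filter. The shares of all genes are thus no fair background for the effector counts in these comparisons.

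**Figure D4:**
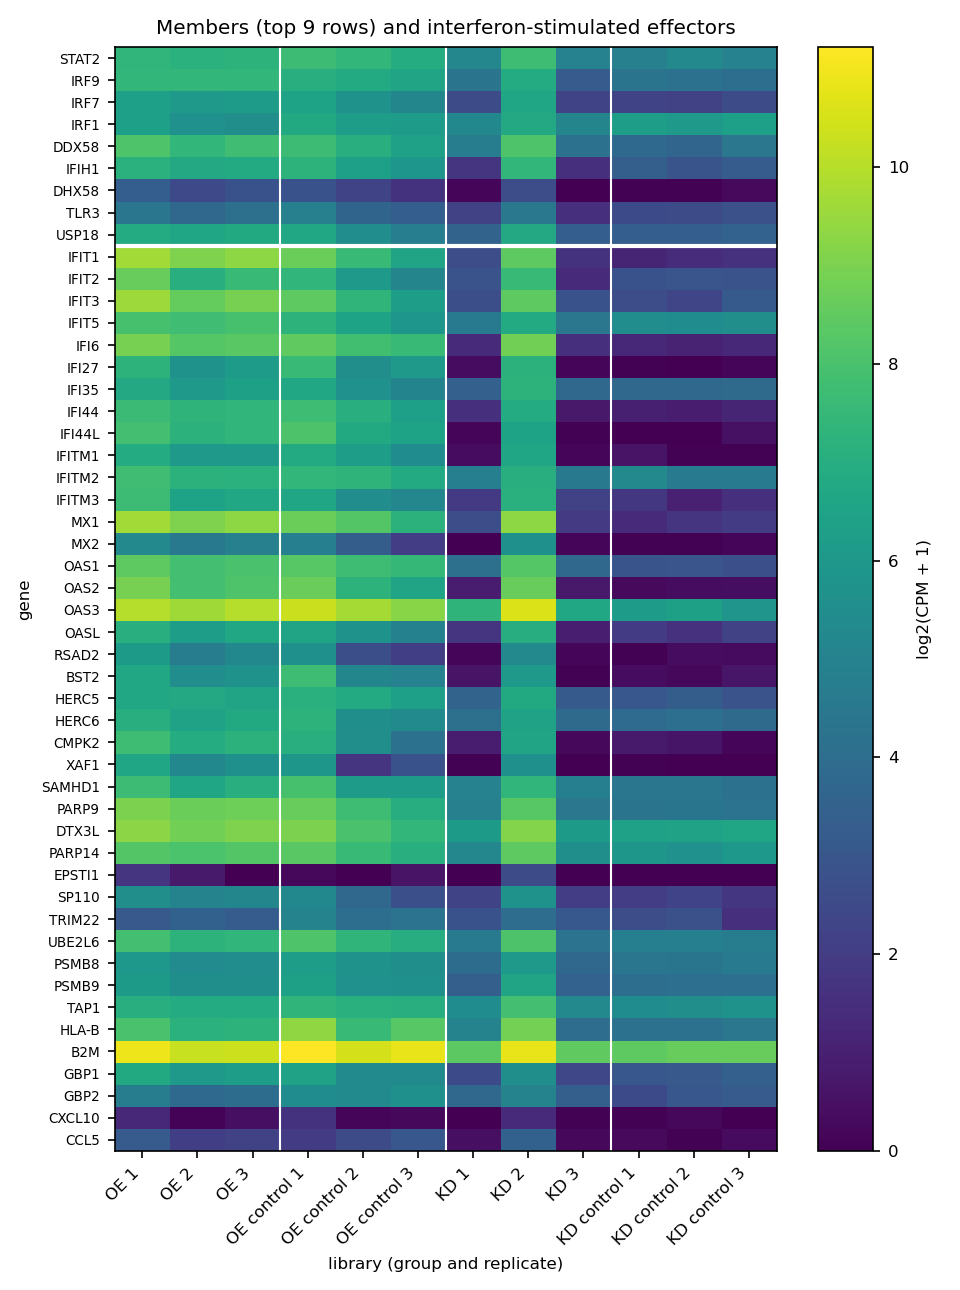
Levels of the 9 genes (upper rows) and of 41 interferon-stimulated effectors (lower rows) in the 12 libraries on the horizontal axis, coloured by log2(CPM + 1). The 6 libraries of the overexpression arm and knockdown replicate 2 are high in most rows, and the other 5 libraries of the knockdown arm are low, with OAS1 at 308 CPM in knockdown replicate 2 and 16.7 and 12.9 CPM in the others.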

How the data were processed

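The authors deposited, for each of 12 A549 libraries, expected counts and FPKM values per transcript, per the file headers. FPKM values are scaled by the authors to transcript length and library size. The tools named in the submitters' processing notes are RSEM, StringTie 1.3.1, Bowtie2 2.2.8, HISAT2 2.0.5 and fastp. The notes name mouse builds, whereas the identifiers are human, so coordinates come from GENCODE 29 (GRCh38). Each library began with 3 µg of RNA, per the labels.

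Of 96247 rows, 82270 with Ensembl identifiers were summed by symbol into 19647 genes (184 symbols turned into dates were restored), and 13977 assembled rows with 13.3% to 15.4% of counts were left out. Expected counts were rounded. The 11908 genes that reached 1 FPKM in 3 or more libraries were tested with edgeR 4.0.16 (quasi-likelihood, robust, TMM) in R 4.3.3, in a single fit of 12 libraries with 8 residual degrees of freedom. Adjusted p-values are Benjamini-Hochberg over these genes, and a call is an adjusted p below 0.05. SE is the size of the log2 fold change over the root of the F statistic. Exact permutation tests are two-sided and were computed with scipy 1.17.1. Alternatives were DESeq2 1.42.0, limma 3.58.1 on log2(FPKM + 1) and log2(FPKM + 0.1), which understates changes of low genes, other scalings and filters, a replicate block, assembled rows added, and omission of libraries. On simulated data with 11908 genes, the fit found 43.2% of 2-fold and 83.6% of 4-fold changes in the overexpression comparison, and 60.3% and 90.5% in the knockdown comparison.

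The 9 genes, the lists, markers and the rule for named genes (all 9 genes, NR0B1, up to 4 called members of each list by adjusted p or the 2 with the highest FPKM where none was called, and the 3 genes nearest in pattern) were chosen with earlier results of these data known. Outside this rule, IFNB1, IFNL1, IFNE, TICAM1, KRT8, USP41, GBP2, XAF1, IL10RB, JAK1, IRF3, DHX9 and the markers were named after their values were seen. Counts of PCR copies are not independent molecules, and a count of 3 was taken as the floor. Some genes of the lists are not reported here.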

Additional observations from a re-analysis of the deposited data

Results flagged for a closer look

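Assembled transcripts, which carry no Ensembl identifier and entered no comparison, are assigned to 7 of the 9 genes by similarity. For 3 of them the overexpression libraries were all above their controls. Those of IRF7 averaged 22.4 CPM, with 30.2, 18.9 and 18.2 CPM against 13.5, 11.3 and 7.87 CPM. Those of USP18 averaged 4.98 CPM, with 6.16, 4.48 and 4.30 CPM against 1.09, 1.63 and 0.07 CPM, and the deposited description likens them to USP41. Those of IRF1 averaged 4.0 CPM, with 3.24, 2.71 and 6.04 CPM against 1.47, 0.30 and 0.28 CPM, while IRF1 from Ensembl transcripts had no higher mean with overexpression. These differences were not tested. The share of all assembled transcripts placed above their controls is not given here, so nothing is read from the 3 of 7 genes.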

How the results depend on the processing

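The number of the 9 genes called with overexpression, 0, was 0 under every setting except 1 (IRF9) with only the 6 libraries compared and 5 without both overexpression control replicate 1 and knockdown replicate 2. As given above, nothing is read from that 5. In the knockdown, where 1 was called, the count was 3 with DESeq2, 0 with limma on either scale, 0 without a low-value filter, 0 with only the 6 libraries compared, 0 with assembled rows added and 3, all lower, without both libraries. Of all genes 29.95% were called with DESeq2, 23.97% and 23.64% with limma, 14.94% without a filter, 15.39% with 6 libraries, 29.49% with assembled rows and 37.73% without both libraries, so 3 of 9 is near the background. Leaving out each library in turn gave 0 to 7, and the 7 came without knockdown replicate 3, where 25.5% of all genes were called. The adjusted p of DDX58 there ran from 0.00779 (DESeq2) to 0.355 (without knockdown replicate 2), and it passed in that series only without knockdown replicate 1 or 3. For the difference of the arms the count of 0 became 4 without both libraries and 0 to 1 without single ones. Of all genes 28.6% were called for the difference without knockdown replicate 2. Between the controls the count was 0 to 8 without single libraries and 5 to 8 otherwise. There 21.5% of all genes were called without knockdown control replicate 3 and 41.3% without knockdown replicate 2. The share for the 4 is not given here, so nothing is read from these counts.

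Replicate numbers did not pair the libraries: deviations of same-numbered libraries correlated at 0.197, 0.131 and 0.008 in the overexpression arm and -0.006, -0.087 and -0.059 in the knockdown arm. With a replicate block, 0 genes of the 9 were called with overexpression, 0 in the knockdown, 0 for the difference and 5 between the controls. The share of all genes called between the controls with the block is not given here, so nothing is read from the 5. Over all genes the block gave 1867 calls with overexpression and 2445 in the knockdown, against 2152 and 2851 without it.

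Signs turned as follows, and the cause was not tested. For the difference of the arms limma on log2(FPKM + 1) gave 0.018 for IRF1, 0.094 for IRF9, 0.0189 for IFIH1, 0.0060 for DHX58 and 0.0192 for USP18, and limma on log2(FPKM + 0.1) gave 0.028 for IRF1, 0.11 for IRF9 and 0.43 for IFIH1. Without both libraries the difference was 0.0029 for STAT2, 0.72 for IRF1, 0.60 for IRF7, 1.07 for IRF9, 0.55 for DDX58, 2.77 for IFIH1, 2.08 for DHX58, 1.59 for TLR3 and 1.54 for USP18. The same omission gave, in the knockdown, -0.34 for IRF9, -1.96 for IFIH1, -0.93 for DHX58 and -0.90 for TLR3, and 0.060 for STAT2 with overexpression and -0.0099 for IRF1 between the controls. Leaving out single libraries, the range was -0.27 to 0.69 for TLR3 and -0.31 to 0.060 for STAT2 with overexpression, and -0.0099 to 0.34 for IRF1 between the controls. In the knockdown it was -0.35 to 1.998 for IRF9, -1.96 to 3.40 for IFIH1, -0.93 to 4.71 for DHX58 and -0.91 to 1.27 for TLR3. For the difference it was -2.09 to -0.17 for STAT2, -0.54 to 0.51 for IRF1, -3.30 to 0.18 for IRF7, -1.41 to 0.95 for IRF9, -2.67 to 0.17 for DDX58, -3.06 to 2.31 for IFIH1, -3.97 to 1.67 for DHX58, -1.26 to 0.94 for TLR3 and -1.70 to 0.85 for USP18. Each upper end of these differences, and each lower end in the knockdown, came without knockdown replicate 2.

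Depth limits DHX58 most, with 0 to 4 counts in 5 libraries of the knockdown arm.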

Other observations

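The assembled rows held 41.7% to 61.8% of all expected counts given to DDX58 and 30.04% to 40.6% of those given to STAT2, which the CPM values above leave out. For DDX58 they were high in the same knockdown library as the Ensembl rows: 25.9, 247 and 17.6 CPM in the knockdown and 15.9, 18.9 and 17.9 CPM in its controls.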
